A study of Mus musculus with 24 samples.

Results

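Mitochondrial ribosomal protein genes were followed in mouse liver at 6 times of day and 2 ages. They were taken by name, as every gene row named Mrps or Mrpl followed by a number, with 4 pseudogene names that contain -ps left out. This gave 78 of 43629 gene identifiers, under 77 names, 29 of the small ribosomal subunit (Mrps) and 48 of the large one (Mrpl). The name Mrps23 had 2 identifiers. The second, on a patch sequence of the assembly, was listed at 0 in all 24 libraries and was not tested. The other 77 genes had a mean of at least 1 TPM (transcript abundance relative to a fixed total per library) and all were tested. The livers came from old (about 19 months) and young (about 4 months) C57BL/6 mice, an inbred laboratory strain, and all of them were wild type. Sampling was at zeitgeber time (ZT, in hours from lights on) 2, 6, 10, 14, 18 and 22, with 2 libraries per age and time, so 12 old and 12 young libraries. The study asks how liver gene expression rhythms differ between old and young mice. The labels name no sex, treatment or feeding scheme and leave unsaid whether replicates came from separate animals. A p here therefore speaks of the spread between these libraries, which may be technical.

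The mitochondrial ribosome, or mitoribosome, translates the 13 proteins that mitochondrial DNA encodes, all of them core subunits of the respiratory chain or of ATP synthase. Its RNAs come from mitochondrial DNA, whereas all of its proteins are encoded in the nucleus, made in the cytosol and imported. Liver cells are rich in mitochondria, and the products of these genes are needed in matched amounts to build both subunits. Some members carry the number of the bacterial protein they descend from, and others are found in mitoribosomes only. Names do not always give the place: in human and pig mitoribosome structures MRPS18A and MRPS30 sit in the large subunit. MRPS36 is now known in humans as an adaptor of the oxoglutarate dehydrogenase complex. It stays in the counts because the choice was by name.

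Promoters of genes for the mitochondrial translation machinery are known for sites of NRF1, of ETS family factors such as GABP and of YY1. The table of RefSeq promoters (GRCm38.p6, 250 bases before to 50 after the start) held 74 promoters of 68 of the 77 names. Both strands were searched and overlaps between motifs were allowed. The letters GCGCANGC, the core of the NRF1 site, were in 29.7% of these promoters and in 9.95% of all 32851 promoters in the table. The ETS core CCGGAAG was in 33.8% of them and in 8.86% of all promoters, and the YY1 letters AAGATGGCG in 10.8% and 1.40%. The E-box CACGTG, to which the clock factors CLOCK and BMAL1 can bind, was in 9.46% of them and in 7.15% of all. Some genes have several promoters, and counted per gene the E-box was in 5 of the 68 names (7.35%) and in 8.09% of all genes. A match describes letters in this window and does not show binding. Below are the 150 bases before the RefSeq start of 6 of the 7 genes that showed a 24 h rhythm. They are shown because these members moved with time of day. For Mrps6 and Mrps22 this start differs from the start in the deposited coordinates, and part of the Mrps6 window lies inside the gene as deposited. Capitals mark a match to 1 of these motifs or to its reverse complement.
Mrpl34, chr8:71464776-71464925, + strand: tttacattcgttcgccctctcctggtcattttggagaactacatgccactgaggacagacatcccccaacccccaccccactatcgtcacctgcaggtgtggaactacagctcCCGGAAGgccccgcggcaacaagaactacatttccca
Mrpl36, chr13:73330859-73331008, + strand: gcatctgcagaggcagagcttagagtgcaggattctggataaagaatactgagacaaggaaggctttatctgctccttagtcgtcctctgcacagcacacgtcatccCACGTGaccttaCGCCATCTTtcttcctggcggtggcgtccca
Mrps27, chr13:99344636-99344785, + strand: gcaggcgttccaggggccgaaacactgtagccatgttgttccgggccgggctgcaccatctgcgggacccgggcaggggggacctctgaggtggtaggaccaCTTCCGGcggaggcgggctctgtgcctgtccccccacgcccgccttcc
Mrps22, chr9:98601680-98601829, - strand: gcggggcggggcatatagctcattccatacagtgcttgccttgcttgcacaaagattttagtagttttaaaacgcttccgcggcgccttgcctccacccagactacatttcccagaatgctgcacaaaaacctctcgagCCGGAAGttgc
Mrps6, chr16:92058186-92058335, + strand: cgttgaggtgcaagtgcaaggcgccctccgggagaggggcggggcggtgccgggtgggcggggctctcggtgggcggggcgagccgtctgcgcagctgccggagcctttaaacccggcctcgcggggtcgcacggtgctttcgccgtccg
Mrpl44, chr1:79775868-79776017, + strand: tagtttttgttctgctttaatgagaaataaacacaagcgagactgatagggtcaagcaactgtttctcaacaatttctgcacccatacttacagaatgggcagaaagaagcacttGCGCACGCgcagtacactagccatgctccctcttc

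In these windows Mrpl34, Mrps27 and Mrps22 held the ETS core, which began 37, 48 and 11 bases before the RefSeq start. Mrpl36 held the YY1 letters and, a few bases further upstream, the E-box. The window of Mrpl44 held the NRF1 core 35 bases before its start, and that of Mrps6 held none of the 4 motifs. Mrpl4 is the seventh gene.

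Mapped depth, estimated by dividing the deposited coverage by FPKM, was 8.70 to 12.3 M reads of 50 bases in old libraries and 9.68 to 13.7 M in young ones. Hepatocyte markers such as albumin were high in all 24 libraries, with summed levels of 77966 to 106500 scaled TPM in old livers and 72078 to 104523 in young livers. The 1st old library at ZT14 had 3.42% of its TPM in mitochondrially encoded genes and the 2nd had 8.74%, against 10.7% to 17.1% in the other 22 libraries. The 2nd young library at ZT18 held transcripts of pancreatic acinar cells, with 3037 scaled TPM summed over 6 markers. The main results are given with and without the 1st old library at ZT14 and this one. Libraries were brought to a common scale with median-of-ratios factors, and all levels below are such scaled TPM.

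Mitoribosomal genes spanned a wide range of levels. Per length and averaged over all 24 libraries, Mrpl30 was highest at 146 ± 44.8 scaled TPM (SD, n = 24), followed by Mrpl52 at 115 ± 29.2, Mrpl20 at 113 ± 34.9, Mrpl12 at 110 ± 32.5 and Mrps18c at 105 ± 27.7. These 5 neighbours in the order overlapped in mean ± SD. Within single libraries Mrpl30 lay above all the others of them except in the 1st old library at ZT14. MRPL12, part of the flexible stalk that recruits translation factors, is also known in humans to bind the mitochondrial RNA polymerase. The lowest were Mrpl19 at 4.99 ± 1.09, Mrps26 at 6.75 ± 3.52 and Mrpl47 at 8.13 ± 1.98. Next came Mrps25 at 9.30 ± 2.63 and Mrpl3 at 9.72 ± 2.99. Neighbours in this order overlapped in mean ± SD, but Mrpl19 lay below Mrpl47 and Mrpl3 in all 24 libraries. Over the 77 genes the levels of Mrpl30 and Mrpl19 thus stood far apart, although both products belong to the same subunit. In bulk liver, fewer cells of a type and less RNA per cell cannot be told apart, here and in all results below.

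The 3 relatives of bacterial S18 stood at different levels. Mrps18c had a lowest, median and highest level of 76.0, 93.8 and 117 scaled TPM in old livers, against 75.1, 101 and 188 in young livers. Mrps18b had 27.8, 33.4 and 42.6 in old livers and 26.6, 36 and 49.4 in young livers. Mrps18a had 24, 34.4 and 43.1 in old livers and 23.3, 33.4 and 43.2 in young livers. In every library Mrps18c lay above both relatives, which overlapped each other, and the ages overlapped for all 3 genes.

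**Figure D1:**
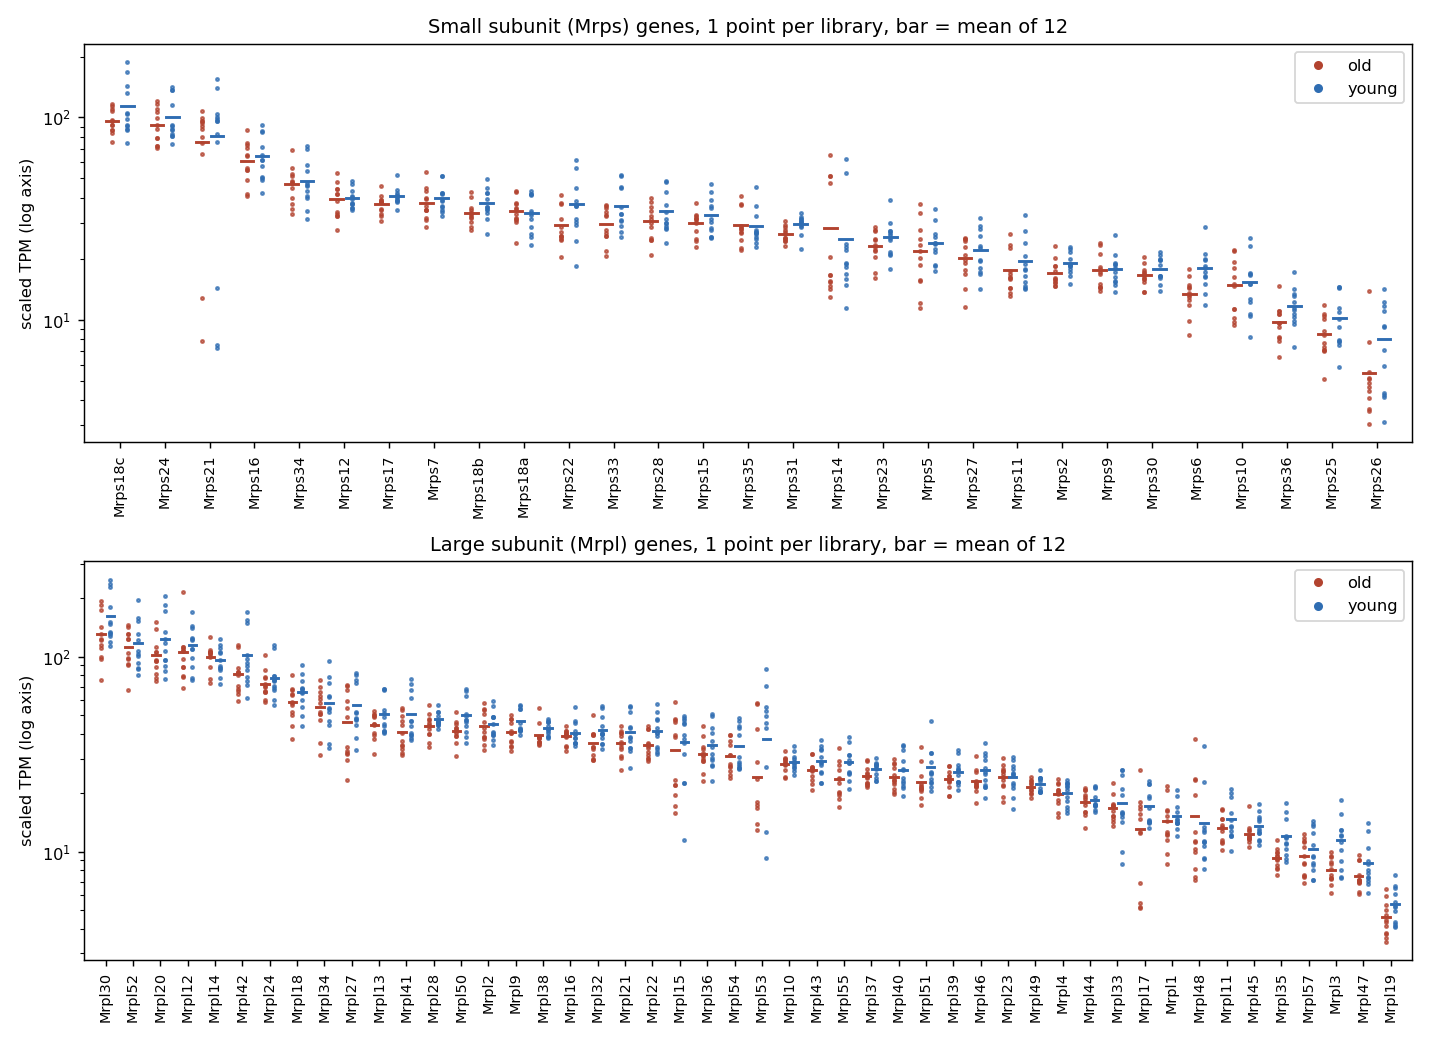
Scaled TPM (log axis) of the 77 tested genes in each of 12 old and 12 young libraries, small subunit names above and large subunit names below, ordered by mean level. Points are libraries and bars are means of 12, and libraries in which Mrpl53 was listed at 0 have no point. Most genes form tight columns in which old and young overlap, while Mrps21 and Mrps14 split into separate groups of points and Mrpl53, Mrpl15 and Mrpl48 spread widely.

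The order depended on the unit. The authors' tables give coverage, the mean number of reads over each base, beside FPKM and TPM, and the ratio of coverage to FPKM differed between genes and, for some genes, between libraries. Mrpl30 was first of the 77 by TPM but 29th by coverage, and Mrpl52 was first by coverage. The rank correlation of the 2 orders (Spearman) was 0.76 over the 77 genes, which is across genes and not across replicates. Across libraries the ratio of a gene moved by over 1.5 times in 13 of the 77 and by over 2 times in 8, whereas 28.8% and 14.4% of all genes tested moved that far.

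Mrps14, a conserved small subunit protein, shows what this does, whereas Mrps21, the relative of bacterial S21, split in coverage too. In 6 libraries, 4 old and 2 young, Mrps14 was at 47.3 to 65.5 scaled TPM, and in the other 18 it was at 11.4 to 23.8. Its coverage per mapped gigabase was 7.56 to 10.2 in those 6 libraries and 7.17 to 13 in the other 18, so the gap between the libraries was in TPM and not in coverage. Mrps21 was at 7.24 to 14.3 scaled TPM in 5 libraries, 2 old and 3 young, and at 66.2 to 154 in the other 19. Here coverage per mapped gigabase split in the same way, at 1.75 to 3.07 against 14.4 to 28.8. Both splits held old and young libraries, and their cause was not tested.

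Mrpl53 was unsteady too. It was listed at 0 in 4 libraries, the 2nd old ones at ZT10 and ZT18 and the 2nd young ones at ZT2 and ZT6, and reached 57.6 scaled TPM in old and 86.0 in young livers elsewhere. Mrpl53 overlaps Ccdc142 on the same strand. Mrps24, Mrpl33, Mrps34 and Mrps28 also overlap another expressed gene on the same strand, and how the authors' quantification shared reads there is uncertain. These 5 are counted but nothing is drawn from them singly.

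**Figure D2:**
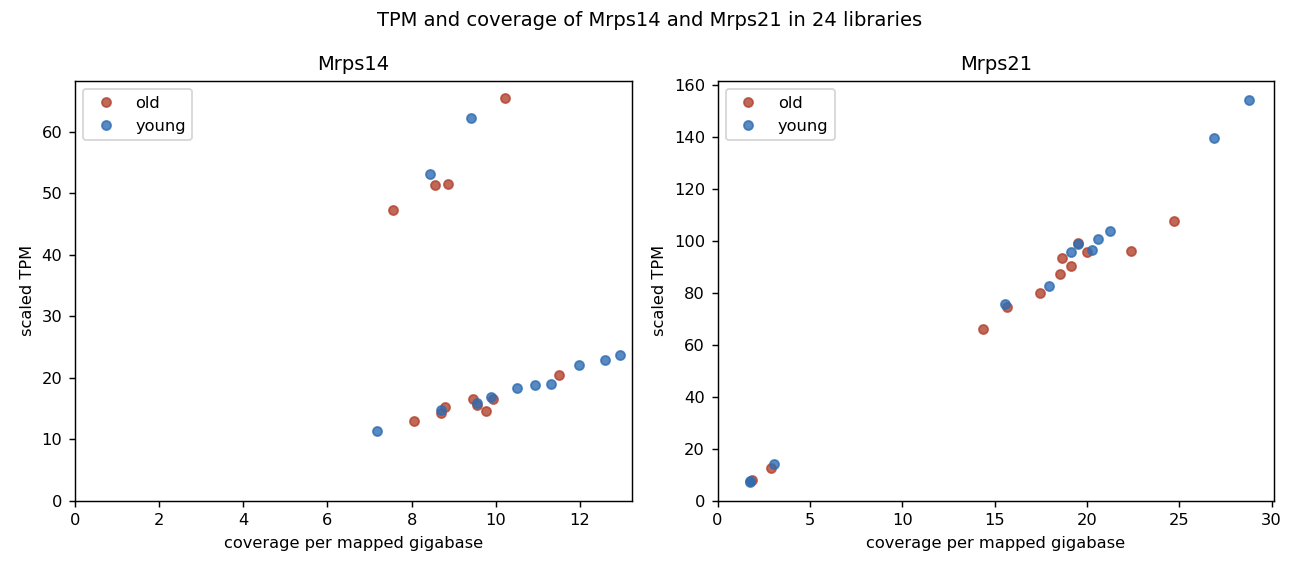
Scaled TPM (y axis) against coverage per mapped gigabase (x axis) of Mrps14, left, and Mrps21, right, with 1 point for each of 12 old and 12 young libraries. Mrps14 forms a band of 6 libraries at 47.3 to 65.5 scaled TPM above 18 libraries at 11.4 to 23.8 with the same coverage, while Mrps21 has 5 libraries low in both measures.

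With age, mitoribosomal genes had slightly lower fitted levels, but no single gene passed the test. In the fit of all 12 age and time groups (limma, Benjamini-Hochberg adjusted over 12261 genes), 0 of the 77 were called, where 1.64% of all genes tested were. Of the 77, 70 had a negative log2 difference of old minus young. The median was -0.14, beside -0.01 over all genes tested. At an unadjusted p under 0.05 there were 13 genes, all lower in old, which is 16.9% of the 77, where 5.7% of all genes tested were lower at that level. This count was not steady: it was 5 with TPM or FPKM as deposited, and it ran between 4, without the 1st young library at ZT22, and 22, without the 1st old library at ZT10. Within the libraries numbered replicate 1 the median was -0.15 with 67 genes lower, and within replicate 2 it was -0.13 with 70 lower. Both subunits shared this, with a median of -0.14 and 25 of 29 lower for the small subunit and of -0.15 and 45 of 48 lower for the large one. The 44 genes with a number that bacterial ribosomes also use had a median of -0.13 with 39 lower, and the 33 with higher numbers, mostly proteins without a bacterial relative, had -0.14 with 31 lower.

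The size depended on the scaling but the sign of the median did not. With TPM as deposited, in which the median of all genes was 0.09 in place of -0.01, the median of the 77 was -0.03 with 51 lower. It was -0.07 with 56 lower in deposited FPKM and -0.11 with 68 lower after quantile normalization. In scaled coverage it was -0.13 with 71 lower, 13 at an unadjusted p under 0.05 and 0 called by limma, where 1.97% of all genes were. Relative to the median of all genes these came to -0.12, -0.12, -0.11 and -0.12. Without the 1st old library at ZT14 and the 2nd young library at ZT18 the median was -0.19, with 73 lower, 26 at an unadjusted p under 0.05 and 0 called. Over the 24 fits that each left out 1 library it ran between -0.18 and -0.10, and the fit without the 1st old library at ZT6 called 1 gene, Mrps6.

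The smallest p belonged to Mrps6, a small subunit protein in the platform of bacterial ribosomes. Its lowest, median and highest levels were 8.39, 13.4 and 17.8 scaled TPM in old livers, against 11.9, 17.6 and 28.7 in young livers. The old libraries were mostly below the young ones, the highest old library lay just above the young median, and the ranges overlapped. The log2 difference was -0.41 ± 0.11 (SE), with an adjusted p of 0.0717, and Mrps6 was lower in old at 6 of 6 times. It was -0.33 within replicate 1 and -0.49 within replicate 2, and -0.35 in scaled coverage with an adjusted p of 0.0826.

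Mrpl35, a relative of bacterial L35, had 7.58, 9.31 and 11.5 scaled TPM in old livers as its lowest, median and highest level, against 8.80, 11.4 and 17.8 in young livers. The highest old library reached just past the young median. The log2 difference was -0.33 ± 0.10 (SE), with an adjusted p of 0.126, and it was lower in old at 6 of 6 times. Mrpl3, whose human counterpart is mutated in a mitochondrial cardiomyopathy, averaged 8.05 ± 1.21 scaled TPM in old livers and 11.4 ± 3.34 in young livers (SD, n = 12 each). It differed by -0.44 on the log2 scale (adjusted p 0.197), but by only -0.11 in scaled coverage. The ratio of coverage to FPKM of Mrpl3 moved by over 2 times across libraries.

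Mrps26, found in mitoribosomes and not in bacteria, also differed in TPM and not in coverage. It averaged 5.47 ± 2.91 scaled TPM in old livers and 8.03 ± 3.72 in young livers (SD, n = 12 each), with a log2 difference of -0.48. In scaled coverage the difference was 0.0045 and thus turned sign. Mrpl17 had the largest log2 difference of the 77, -0.54 ± 0.23 (SE), and -0.58 in coverage, with an adjusted p of 0.364. Its old libraries spread from 5.15 to 26.1 scaled TPM, around the young range of 13.2 to 23.1.

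The other 8 genes under an unadjusted p of 0.05 differed less. Mrps22, mutated in human mitochondrial disease, had a log2 difference of -0.30, and Mrpl55 and Mrpl42 had -0.29 each. Mrps36 had -0.25, Mrpl50 -0.24, and Mrpl22 and Mrpl32 had -0.23 each. The precursor of MRPL32 is known in mice to be processed by the m-AAA protease. Mrps31 differed by -0.16 with one of the tightest spreads of all members, 26.5 ± 2.28 scaled TPM in old livers and 29.7 ± 3.04 in young livers (SD, n = 12 each). Adjusted p of these 8 lay between 0.293 and 0.422.

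The 7 genes with a positive difference were far from the threshold. Mrps21 had the largest at 0.12 ± 0.43 (SE) and Mrps14 followed at 0.11 ± 0.32, both genes with the split values described above. In scaled coverage Mrps14 had -0.21 and Mrpl48 -0.10, so these signs turned. Mrps21 had -0.81 within replicate 1 and 1.05 within replicate 2. Mrpl14, a conserved protein at the subunit interface, was steadier, with 99.9 ± 14.1 scaled TPM in old livers and 96.3 ± 15.5 in young livers (SD, n = 12 each) and a difference of 0.06. Mrpl48, Mrps18a, Mrps35 and Mrpl23 lay between 0.00 and 0.05.

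**Figure D3:**
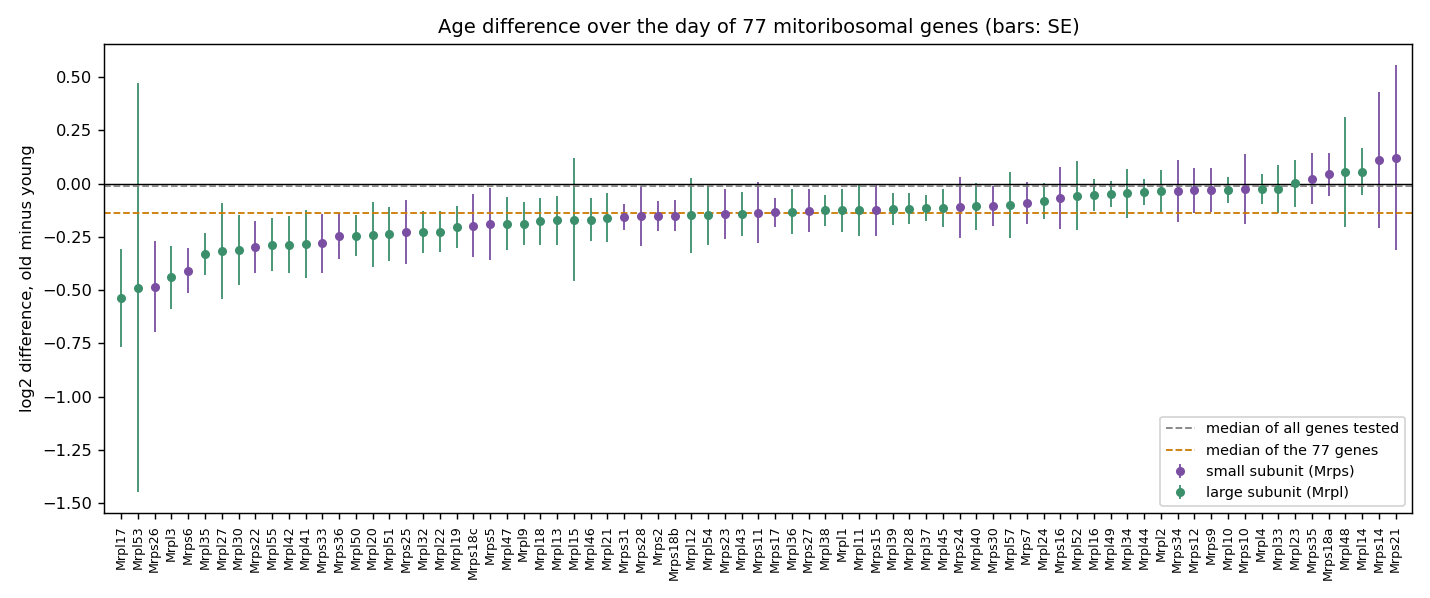
Log2 difference of old minus young over the day for the 77 tested genes, in order, with SE from limma. Of these, 70 lie below 0 (51 with TPM as deposited), the median of the 77 is -0.14 and that of all genes tested -0.01, and no gene passed the adjusted threshold.

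Other cell types moved with age in the same libraries. Plasma and B cell markers summed to a lowest, median and highest of 116, 161 and 641 scaled TPM in old livers, against 11.4, 30.8 and 58.3 in young livers, with no overlap. Neutrophil markers had a median of 26.8 in old livers and 7.90 in young livers with overlapping ranges, and the defining marker Ly6g was listed at 0 in all libraries. Kupffer cell markers had a median of 286 in old livers and 244 in young livers. Hepatocyte markers had a median of 85998 in old livers and 97068 in young livers, with nearly the same ranges. The part of these markers in the lower levels of mitoribosomal genes was not tested.

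At single times the comparison rests on 2 old and 2 young libraries. By limma, 0 of the 77 were called at any time, where the share of all genes called was 0% at ZT2, 0% at ZT6, 0.53% at ZT10, 0.0408% at ZT14, 0.0245% at ZT18 and 0.00816% at ZT22. At an unadjusted p under 0.05 there were 0, 2, 1, 5, 2 and 1 of the 77 at these times. Of all genes tested, 4%, 4.04%, 7.92%, 7.87%, 4.63% and 3.04% were at that level. The median log2 difference of the 77 was -0.12 at ZT2, -0.12 at ZT6, -0.05 at ZT10, -0.16 at ZT14, -0.26 at ZT18 and -0.15 at ZT22, with 59, 58, 48, 62, 69 and 61 genes lower. It was therefore smallest in the late light phase and largest at ZT18, but the variation over times was called for 0 of the 77 by limma, where 0.0163% of all genes were called. None of the 77 was under an unadjusted p of 0.05 for it, where 3.6% of all genes were. The 5 smallest p for this variation belonged to Mrpl33, Mrps10, Mrps18a, Mrps21 and Mrpl53 and began at 0.0888.

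The largest single-time differences came from genes with unsteady values. Mrpl53 had the largest positive one at ZT2 and ZT6, where 1 of the 2 young libraries was listed at 0, and the largest negative one at ZT10, ZT18 and ZT22. Mrps21 had the largest positive one at ZT10 and ZT18, and Mrps14 at ZT14 and ZT22. At ZT2 the largest negative one was that of Mrpl48, with 11.2 and 7.36 scaled TPM in the old libraries, against 11.3 and 34.6 in the young ones. At ZT14 it was that of Mrps26, with 7.74 and 4.66 in old libraries and 14.1 and 11 in young ones. At ZT6 it was that of Mrpl17, with 6.87 and 5.19 scaled TPM in old libraries and 18.9 and 14.2 in young ones, and its unadjusted p was 0.0265.

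A 24 h rhythm was found for 7 of the 77 genes, and no difference between the ages in these rhythms passed the test. A cosine of 24 h was fitted per age, and its mean over both ages was tested with limma. These 7 are 9.09% of the genes, where 23.9% of all genes tested were called. They are Mrpl34, Mrpl36, Mrps27, Mrps22, Mrpl4, Mrps6 and Mrpl44, so 4 of the large and 3 of the small subunit. Of them 4 carry a bacterial number and 3 a higher one. The first 6 peaked between ZT18.3 and ZT21.3, and Mrpl44 peaked at ZT1.53. Amplitude, the log2 difference between fitted peak and trough, ran from 0.34 to 0.90 for these genes, and its median over the 77 was 0.27, beside 0.36 over all genes tested. Core clock genes, for scale, were called in 14 of 14 tested with a median amplitude of 2.98.

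Mrpl34 had the clearest rhythm. Its product is the relative of a small bacterial large subunit protein. The gene (ENSMUSG00000034880) lies at chr8:71464926-71465752 of GRCm38. In old livers its 2 libraries had 50.5 and 50.9 scaled TPM at ZT2, 47.1 and 35.8 at ZT6, 51.9 and 31.3 at ZT10, 65.8 and 57.9 at ZT14, 69.4 and 62.9 at ZT18, and 76.1 and 60.8 at ZT22. In young livers they had 62.5 and 52.1 at ZT2, 46.5 and 35.8 at ZT6, 33.8 and 44.5 at ZT10, 73.2 and 53.5 at ZT14, 95.2 and 61.8 at ZT18, and 78.5 and 54.3 at ZT22. At both ages every library from ZT14 to ZT22 lay above every library at ZT6 and ZT10. The amplitude was 0.90 with a peak at ZT19.3 and an adjusted p of 0.000366. It was 0.84 with a peak at ZT19.2 in old livers (adjusted p 0.0313) and 0.96 with a peak at ZT19.4 in young livers (adjusted p 0.0114).

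Mrpl36 (ENSMUSG00000021607, chr13:73331009-73332175) encodes a very small zinc-binding protein in bacteria and in mitochondria. In old livers its means were 31.8, 29.4, 27.1, 27.9, 35.6 and 38.8 scaled TPM from ZT2 to ZT22, against 36.1, 29.1, 26.1, 35.1, 41.9 and 44.1 in young livers. The lowest means were at ZT10 and the highest at ZT22 at both ages. The amplitude was 0.60 with a peak at ZT21.1 and an adjusted p of 0.00544. It was called in young livers alone (adjusted p 0.0337) but not in old livers alone (adjusted p 0.205), and the difference itself was not called.

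Mrps27 (ENSMUSG00000041632, chr13:99344786-99415561) encodes a pentatricopeptide repeat protein, known in humans to bind mitochondrial ribosomal RNA. Its means were 25.2, 18.7, 14.2, 19.6, 22.7 and 21 scaled TPM in old livers from ZT2 to ZT22, against 24.6, 17.6, 15.5, 21.1, 30.4 and 23.9 in young livers. The trough at ZT10 was shared. Both young ZT10 libraries lay below all other young libraries, and both old ones lay below all other old libraries except the 2nd at ZT14, at 14.1. The amplitude was 0.68 with a peak at ZT21.3 and an adjusted p of 0.00648.

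Mrps22 (ENSMUSG00000032459, chr9:98588730-98601660) has no bacterial relative. In old livers it averaged 28.4, 27.2, 22.6, 26.5, 37.6 and 33.1 scaled TPM from ZT2 to ZT22, against 36.8, 33.0, 21.5, 37.7, 50.3 and 43.9 in young livers. It was lowest at ZT10 and highest at ZT18 at both ages. The amplitude was 0.73, the peak was at ZT20.5 and the adjusted p was 0.0114. In old livers the amplitude was 0.56 and in young livers 0.90, neither of them called alone.

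Mrpl4 (ENSMUSG00000003299, chr9:21002737-21008835), a conserved protein that lines the peptide exit tunnel, moved little but steadily. Its means ran from 16.7 at ZT10 to 21.3 at ZT22 in old livers and from 16.4 at ZT10 to 22.5 at ZT18 in young livers. The amplitude was 0.38, the peak was at ZT20.3 and the adjusted p was 0.0128. Mrps6 (ENSMUSG00000039680, chr16:92058270-92112227) was highest at ZT14, with 15.5 scaled TPM in old livers, and at ZT18, with 24.9 in young livers. Its amplitude was 0.56, its peak was at ZT18.3 and its adjusted p was 0.0147.

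Mrpl44 (ENSMUSG00000026248, chr1:79776018-79781445) peaked latest of the 7, early in the light phase. Its product holds an RNase III-like domain, and its human counterpart is mutated in a cardiomyopathy. In old livers the means were 20.6, 19.2, 16.4, 14.6, 17.3 and 19.6 scaled TPM from ZT2 to ZT22, against 21.3, 18.2, 17.8, 16.2, 19.6 and 17.3 in young livers. It was highest at ZT2 and lowest at ZT14 at both ages. The amplitude was 0.34 with an adjusted p of 0.0195. It was 0.46 in old livers (adjusted p 0.0483) and 0.21 in young livers (adjusted p 0.484). Of all 77 genes Mrpl44 also had the smallest spread between the libraries of a group, an SD of 0.114 on the log2 scale, beside a median of 0.290 over the 77.

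**Figure D4:**
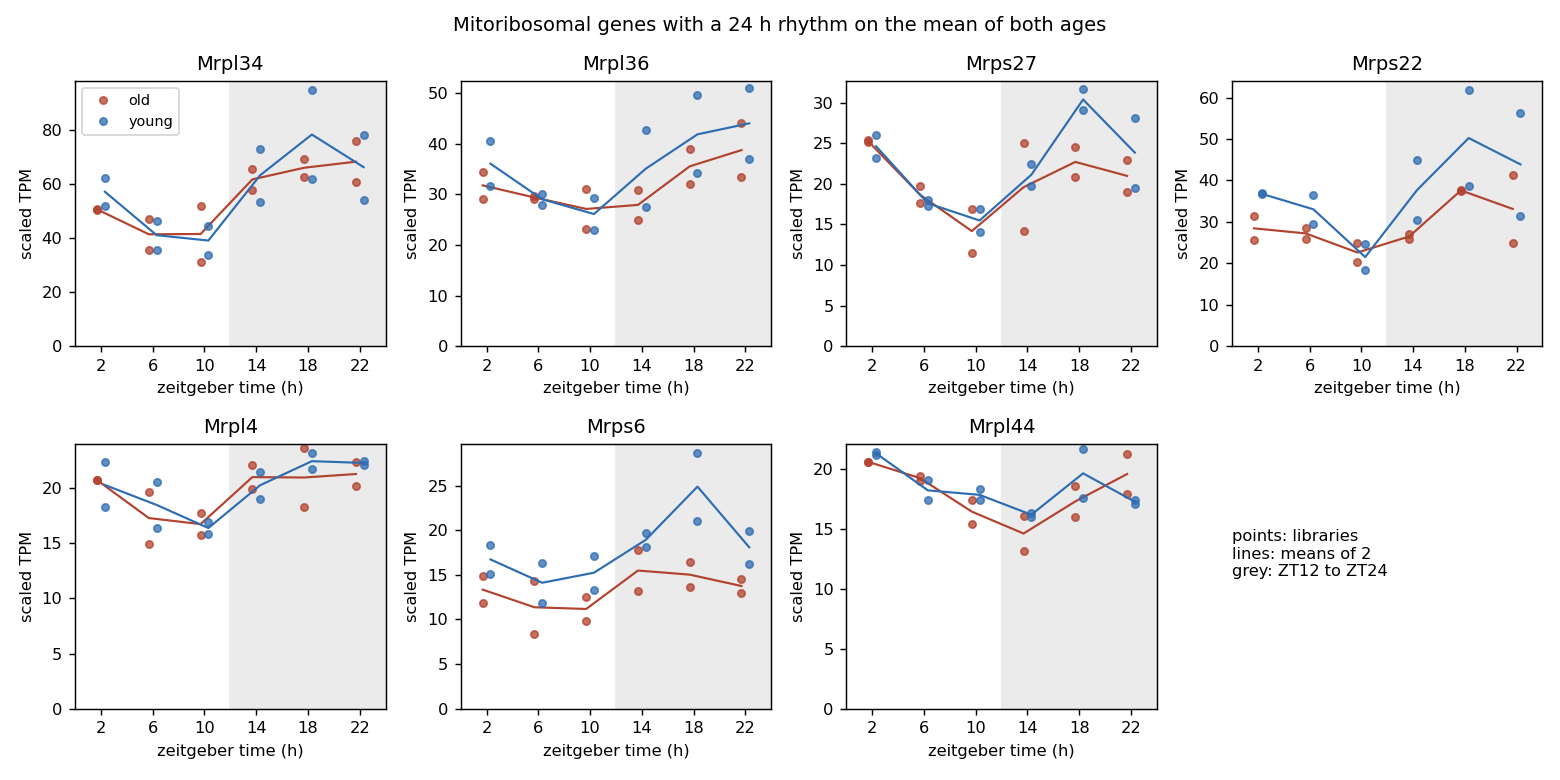
Scaled TPM of the 7 genes with a called 24 h rhythm against zeitgeber time, with points for single old and young libraries and lines through the means of 2. ZT12 to ZT24 is shaded. The means of Mrpl34, Mrpl36, Mrps22, Mrpl4 and Mrps6 are highest there and lowest at ZT6 or ZT10, those of Mrps27 are lowest at ZT10, and those of Mrpl44 are highest at ZT2 and lowest at ZT14.

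These calls differed in how firm they were. All 7 were kept in each of the 24 fits that left out 1 library. With TPM as deposited 6 of the 77 were called, where 22.6% of all genes were. Mrpl34, Mrpl36 and Mrps22 were still called, and the adjusted p was 0.331 for Mrpl4, 0.140 for Mrpl44, 0.0523 for Mrps27 and 0.0806 for Mrps6. In scaled coverage 12 of the 77 were called, where 27% of all genes were, and the 7 were among them. The other 5 were Mrps25, Mrpl19, Mrps9, Mrpl24 and Mrpl18. A test of the 6 time means without a curve called 2 of the 77 and 15.3% of all genes. Without the 1st old library at ZT14 and the 2nd young library at ZT18, 8 were called, where 22.9% of all genes were.

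For the 7 called genes, whose call already rests on both sets of libraries, peaks are given per set as a description. Fitted separately, Mrpl34 peaked at ZT19.3 in replicate 1 and ZT19.4 in replicate 2, Mrpl44 at ZT1.59 and ZT1.47, and Mrpl4 at ZT20.4 and ZT20.2. The gap between the 2 peaks was at most 2.41 h among the 7, for Mrps6. Over all 77 genes it had a median of 3.96 h and a highest value of 11.8 h, for Mrpl14, and it was over 6 h in 25, whereas over all genes tested the median was 2.53 h and 21.3% were over 6 h. Amplitudes were less alike for Mrps22, at 1.05 in replicate 1 and 0.41 in replicate 2, and for Mrpl36, at 0.84 and 0.36. Of all 77 genes, called or not, 65 had their fitted peak between ZT12 and ZT24, where 51.1% of all genes tested did. With TPM as deposited these were 52 of 77 and 38.4%, in scaled coverage 64 and 51.0%. Within replicate 1 there were 70 such genes and within replicate 2 there were 49.

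No difference between old and young rhythms passed the test. In old livers alone 2 of the 77 were called, Mrpl34 and Mrpl44, where 8.96% of all genes were. In young livers alone 3 were called, Mrpl34, Mrpl36 and Mrps27, where 10.7% of all genes were. These calls rested on few libraries: in old livers Mrpl34 was lost in 4 of the 24 fits without 1 library and Mrpl44 in 19. In young livers Mrpl34 was lost in 1, without the 1st young library at ZT18, Mrpl36 in 6 and Mrps27 in 18. The difference between the old and the young rhythm was called for 0 of the 77 by limma, as for 0% of all genes. At an unadjusted p under 0.05 there were 0 of the 77 and 3.51% of all genes. The smallest p of this test belonged to Mrpl2, Mrps18a, Mrpl33, Mrpl53 and Mrps26 and began at 0.0931. Mrpl2 had an amplitude of 0.52 with a peak at ZT8.85 in old livers and of 0.29 with a peak at ZT14.5 in young livers. The median amplitude of the 77 was 0.22 in old livers and 0.36 in young livers, beside 0.39 and 0.44 for all genes. The young amplitude was larger in 51 of 77, where it was larger in 55.7% of all genes, but in only 34 of 77 with TPM as deposited, where it was larger in 53.0% of all genes.

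A 12 h component was tested beside the 24 h one. By limma 0 of the 77 were called, where 0.816% of all genes were, and 3 were under an unadjusted p of 0.05, as were 10.6% of all genes. These were Mrps18b, with an amplitude of 0.39 and an adjusted p of 0.162, Mrpl1, with 0.45 and 0.299, and Mrps27, with 0.38 and 0.442. Mrps2 and Mrps22 followed. With 6 times a 12 h wave rests on 3 points per period.

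The mean level of the 77 genes differed between the 2 libraries of most groups, and in the same direction. The mean of log2(scaled TPM + 0.5) over the 77 had a lowest, median and highest of 4.42, 4.80 and 5.0 in old libraries and of 4.67, 4.86 and 5.31 in young libraries. In 11 of the 12 groups the library numbered replicate 1 was higher than replicate 2. The exception was young ZT10, with 4.71 in replicate 1 and 4.80 in replicate 2. The largest gap was at old ZT10, with 4.95 and 4.42, and the 3 highest libraries of all were the 1st young ones at ZT14, ZT18 and ZT22, at 5.31, 5.30 and 5.26.

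**Figure D5:**
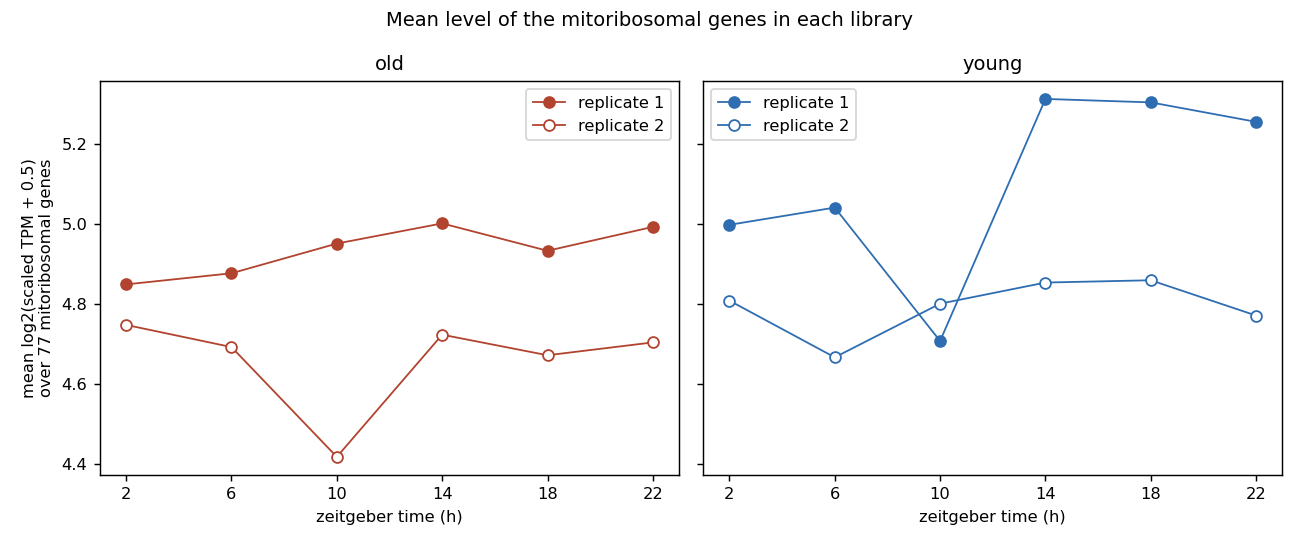
Mean of log2(scaled TPM + 0.5) over the 77 genes in each library against zeitgeber time, old on the left and young on the right, with filled points for replicate 1 and open points for replicate 2. Replicate 1 is higher in 11 of 12 groups, the exception being young ZT10, and the gap reaches 4.95 against 4.42 at old ZT10.

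Gene by gene, 72 of the 77 were higher in replicate 1 than in replicate 2, and 45 were called by limma after adjustment, where 14.7% of all genes tested were called higher in replicate 1. The median log2 difference of replicate 1 minus replicate 2 was 0.26 for the 77 and -0.01 for all genes. With TPM as deposited, in which the median of all genes was -0.15, it was 0.10 with 56 higher, and in scaled coverage 0.26 with 75 higher. Mrpl54, with no bacterial relative, was called with the smallest p. It averaged 38.3 ± 6.90 scaled TPM in replicate 1 and 27.4 ± 2.16 in replicate 2 (SD, n = 12 each), a log2 difference of 0.46 ± 0.08 (SE) with an adjusted p of 0.00187. Mrpl52 differed by 0.51, Mrpl43 by 0.32 and Mrpl27 by 0.73. Mrpl43 and Mrps27 were higher in replicate 1 in all 12 groups. Mrps5, Mrps14, Mrps2, Mrps17 and Mrps31 were the 5 genes not higher in replicate 1, and none of them was called.

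Other measures moved with the replicate number too. Cytosolic ribosomal protein genes had a median difference of 0.43 and respiratory chain genes of 0.30. Over all genes the median was lower for longer transcripts, at -0.25 in the longest of 5 equal bins and 0.23 in the shortest. Mitoribosomal genes were higher in replicate 1 in each bin, with medians of 0.30, 0.21, 0.22, 0.24 and 0.35 from short to long. Erythroid markers averaged 1699 ± 536 scaled TPM in replicate 1 and 979 ± 187 in replicate 2 (SD, n = 12 each). Depth was 9.68 to 12.3 M reads in replicate 1 and 8.70 to 13.7 M in replicate 2. What the number marks is not given in the sources used here. Its part in the results was not tested beyond the values within each replicate number and fits with the number as a block, given below.

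Members followed each other across libraries. The correlation of a gene with the mean of the other members over the 24 libraries (Pearson) had a median of 0.70, and 56 of the 77 were over 0.5. Of the 8089 other genes with at least 5 TPM, 23.8% were over 0.5. These points share library, depth and time of day, so this is a description. Mrpl13 was closest to the others at 0.96, then Mrpl52 at 0.92 and Mrpl20 at 0.91. Mrps5 at -0.21 and Mrps21 at -0.14 were the 2 below 0, and Mrpl44 was at 0.09. Of genes outside the list, the most alike were Ndufs6 at 0.96, Ndufb9 and Uqcr10 at 0.95, all of the respiratory chain, with Bola2 at 0.96 and Chchd2 at 0.94.

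Genes for the cytosolic ribosome and the respiratory chain were measured in the same fit. The median log2 difference of old minus young was -0.15 for 79 respiratory chain genes, 72 of them lower and 0 called, and 69 of them peaked between ZT12 and ZT24. It was -0.08 for 87 cytosolic ribosomal protein genes, 75 of them lower and 0 called, and 80 of them peaked between ZT12 and ZT24. Of these 87, 49 were lower within replicate 1, 79 within replicate 2 and 9 at ZT10. The 13 mitochondrially encoded genes that mitoribosomes translate had a median of -0.51 and all 13 were lower, but -0.13 at ZT18, -0.10 at ZT22 and -2.09 at ZT14, the time of the 1st old library with the low mitochondrial share. None of the 13 was called. Rhythms were called in 5 of the 79 respiratory chain genes, in 1 of the 87 cytosolic ribosomal genes and in 0 of the 13, against 7 of the 77 mitoribosomal genes. Of all genes tested, 23.9% were called rhythmic. The difference between these lists was not tested.

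The other genes of mitochondrial translation are given by list. Beside these counts, 1.64% of all genes tested were called with age, 53.0% were lower in old and 23.9% were called rhythmic. Of the 6 mitoribosomal proteins with other names, 0 were called with age by limma, 4 had a lower level in old livers, and 1, Ptcd3, was rhythmic. Ptcd3, a pentatricopeptide repeat protein of the small subunit, had an amplitude of 0.54 with a peak at ZT18.2 and an adjusted p of 0.000201. It averaged 20.2 scaled TPM in old livers and 23.9 in young livers, and the log2 difference was -0.24 (adjusted p 0.0647). Ict1, a rescue factor built into the large subunit, was at 45.2 in old livers and 37.7 in young livers, with an adjusted p of 0.680.

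Of 23 tested genes for mitoribosome assembly and rRNA modification, 1 was called with age, where 1.64% of all genes tested were, and it was higher in old. This was Mrm1, which methylates a mitochondrial ribosomal RNA, at 1.84 scaled TPM in old livers and 1.17 in young livers, a log2 difference of 0.48 with an adjusted p of 0.0389. Rhythms were called in 3, the GTPase Noa1 with a peak at ZT16.5, the methyltransferase Mrm2 at ZT19.2 and Fastkd2 at ZT20.7. Of 18 genes for translation factors and for other proteins that act around mitochondrial translation, 0 were called with age and 15 were lower. Tufm, the elongation factor that delivers tRNAs, was at 34.2 in old livers and 39.4 in young livers, with an adjusted p of 0.144. Rhythms were called in 2, Oxa1l, which inserts new proteins into the inner membrane, with a peak at ZT6.31, and Lrpprc, which stabilises mitochondrial mRNA, at ZT11.8.

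Of 19 mitochondrial tRNA synthetase genes, 0 were called with age and 15 were lower. Rhythms were called in 6 (31.6%, beside 23.9% of all genes tested). Hars2 peaked at ZT23.9, Yars2 and Cars2 both at ZT21.7 and Nars2 at ZT3.82. Of 21 genes for mitochondrial transcription, RNA processing and DNA replication, 0 were called with age and 5 were rhythmic (23.8%, beside 23.9% of all genes tested). Among these 5 were the nuclease Mgme1 with a peak at ZT20.1, the helicase Twnk at ZT18.6 and Pnpt1 at ZT22.1. Of 10 regulators of nuclear mitochondrial genes 0 were called with age and 9 were lower, but 4 were lower within replicate 1 and 7 within replicate 2. Rhythms were called in 5 of them, with the receptor Esrra peaking at ZT14.5, the coactivators Pprc1 at ZT14.2 and Ppargc1b at ZT8.72, and Yy1 at ZT8.06. Nrf1, given here because its motif was searched above, averaged 3.64 scaled TPM in old livers and 4.39 in young livers, and the log2 difference was -0.26 (adjusted p 0.266).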

How the data were processed

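Poly(A) RNA of liver was picked with oligo-dT and read from 1 end for 50 bases with strand kept, per the labels' protocols. HISAT2, StringTie and the build GRCm38 stand in the submitters' processing notes, and versions are not given in the sources used here. The authors' tables hold no counts of reads, so counting error is unknown. The deposited coverage is the mean read depth per base, the deposited FPKM is scaled for depth and length, and the deposited TPM sums to 1000000 per library. For the results here TPM were divided by median-of-ratios factors from the 13270 genes above 0 everywhere. The 12261 genes with a mean TPM of 1 or more were tested on log2(scaled TPM + 0.5), which understates changes of low genes. The tool was limma 3.58.1 with an intensity trend, under R 4.3.3. A model of 12 group means (12 residual degrees of freedom) gave age differences and a cosine of 24 h per age (18) gave rhythms. A gene was called at a Benjamini-Hochberg adjusted p under 0.05. The steps were tested on simulated data. Tables and figures used pandas 2.3.3, numpy 2.4.6 and matplotlib 3.10.9 in Python 3.11.15.

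The members, lists, tests and alternatives were chosen with earlier results of these data known. The alternatives were TPM and FPKM as deposited, quantile normalization, a pseudocount of 0.1 or of 1, filters of 0 and 5 TPM, no intensity trend, the replicate number as a block, leaving out each library, 2 libraries or ZT14, and a test of the time means. Scaled coverage was added after seeing the data. Named by rule were members past a threshold, the 5 smallest p of tests on differences and the 12 h component, the 5 highest and lowest levels, the largest difference per time, the Mrps18 relatives, up to 4 genes per list and the 5 other genes most like the members. As 0 passed for age, the 13 members at an unadjusted p under 0.05 were named after their values were seen, as were members with split values or the smallest p between replicate numbers. Of 115 list entries, 110 matched by name and 4 by a RefSeq synonym.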

Additional observations from a re-analysis of the deposited data

How the results depend on the processing

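Of the recomputed counts and medians 288 stayed close to the reported value and 40 moved, 24 of these for the rhythm in old livers. Of the recomputed values of single genes 792 kept direction and call, 68 lost the call, 3 gained it and 1 turned sign. The number called for age was 0 in all of them except 1 without the 1st old library at ZT6 (Mrps6; range 0 to 1 over the fits without 1 library) and 2 with the replicate number as a block, Mrps6 and Mrpl35, with 26 genes at an unadjusted p under 0.05. The block called 353 of all 12261 genes tested for age, beside these 2 of the 77 (2.6%). The labels leave unsaid whether the numbers pair the samples. Deviations from group means correlated by over 0.1 in 52 of the 55 pairs of groups without young ZT10. With young ZT10 this held in 0 of the 11 pairs. For the 24 h rhythm over both ages the block called 15 (30.1% of all genes), scaled coverage 12 and the test of time means 2. The fits without 1 library called 7 to 13, with 13 without the 2nd young library at ZT22 and 11 without the 1st young library at ZT6. In old livers alone the count was 0 with the test of time means and without ZT14, 1 in scaled coverage and with no intensity trend, and 0 to 2 without 1 library. In young livers alone it was 0 with the test of time means, 1 with no filter, 6 with the block, and 0 to 6 without 1 library, with 0 without the 1st at ZT18 and 6 without the 2nd at ZT22. The age difference of Mrps26 was 0.0045 in scaled coverage against -0.48 in scaled TPM. Causes were not tested. Libraries of 8.70 to 13.7 M reads and 2 per group limit what single times can show.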

Other observations

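Of the 77 genes, 16 start head to head with a neighbouring gene on the other strand (20.8%), where 9.59% of all genes tested did. Counted were starts in the deposited coordinates at most 1000 bases apart, or overlapping by at most 200 bases. Mrpl46 and Mrps11, on opposite strands with a longer overlap there, are therefore not among them. Mrpl32 and the proteasome gene Psma2 moved together across the 24 libraries most closely of these pairs, with a Pearson r of 0.80. Mrpl40 and the histone chaperone gene Hira went opposite ways, with an r of -0.59, and the median over the 16 pairs was 0.12. These are descriptions, since the libraries share depth, time and age. A 24 h rhythm was called for 5 of the 16 partners, where 23.9% of all genes tested were called. Both genes of the pair were called only for Mrps27 and Ptcd2, which peaked at ZT17.9. Of the partners 12 had a lower level in old livers and 0 were called with age, where 53.0% of all genes tested were lower and 1.64% were called.

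Mrpl27 and Mrpl17 also had libraries in which the ratio of coverage to FPKM stood apart, whereas for Mrpl48 and Mrpl15 the ratio spread widely without a clear gap. Mrpl27 was at 23.2 to 33.1 scaled TPM in 6 such libraries, 5 old and 1 young, and at 34.2 to 81.9 in the other 18, and its coverage per mapped gigabase was 2.50 to 3.49 against 5.0 to 12.3. Mrpl48 was at 23.2 to 37.6 scaled TPM in the 4 libraries with its lowest ratios, 3 old and 1 young, and at 7.18 to 22.7 in the other 20. There coverage overlapped, at 1.43 to 1.62 per mapped gigabase against 1.19 to 2.02.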
